A study of Homo sapiens with 6 samples.

Results

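MDA-MB-231 is a human breast cancer cell line that grows as loose, spindle-shaped, invasive cells and is used as a model of triple-negative disease. The values described here are the levels of its transcripts in cells that stably express a scramble shRNA, a short hairpin RNA with a shuffled sequence meant to have no target. The members are the 3 arrays whose titles name the scramble shRNA, of 6 arrays in the whole series. The other group expresses an shRNA against MYOSIN10 and enters no value below, so nothing here is a knockdown comparison. The cells were grown in Leibovitz's L-15 medium with fetal bovine serum and without added CO2, and the labels name no drug or time point. The group is 1 cell line and 1 hairpin. The labels do not say whether the transduced cells were a pool or a clone, or whether the 3 arrays came from separate cultures, so the SD over arrays may be technical.

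Breast epithelium is built from luminal cells, which carry hormone receptors and simple keratins, and basal cells, which carry other keratins and matrix-binding proteins. Both hold together through E-cadherin junctions, which need a set of epithelial transcription and splicing factors. In epithelial-mesenchymal transition, factors of the SNAIL, ZEB and TWIST families repress that set, and cells take on vimentin filaments, matrix production and motility. Triple-negative tumours are those without oestrogen receptor, progesterone receptor and amplified ERBB2.

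Each array gives 1 log2 signal per probe set, a group of short probes for 1 transcript, summarised by the MAS5 algorithm, with 0 as the lowest value. A gene was taken at its brightest probe set (by the mean of the 3 arrays) among those listed with a single symbol, which gave 19775 genes. Its percentile is its rank within the array, with 100 as the brightest gene. Olfactory receptor genes, which breast cells are not known to use, set a floor on each array at the 90th percentile of their own signals: log2 6.02, 5.72 and 5.85 on arrays 1, 2 and 3. A gene was called bright when it lay in the top 10% of genes on all 3 arrays, above the floor when it exceeded the floor on all 3, near the floor when it did so on none, and mixed otherwise. Probes differ in how strongly they bind, so a percentile places a gene in a band and is not an RNA copy number. A bulk extract also averages over cells, so fewer cells with a transcript and less of it per cell cannot be told apart.

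Over all genes, 1807 (9.14%) were bright, 10999 (55.6%, the bright ones included) were above the floor, 2020 (10.2%) were mixed and 6756 (34.2%) were near the floor. These shares are the background for the counts of listed genes below. A gene with many probe sets has more chances to exceed the floor, and the shares are not adjusted for that. Of the 82 olfactory receptor genes themselves, 64 were near the floor, 17 were mixed and 1 was above it. The 3 arrays were alike in coverage, with 59.4% to 61.6% of genes above the floor of the array. Signals of probe sets at both ends of control transcripts, a sign of RNA integrity, gave 3′ to 5′ ratios of 0.955 to 0.995 for GAPDH and 1.38 to 1.43 for ACTB. The listed probe sets of GAPDH and ACTB averaged log2 14.55 to 15.15, near the top of the scale, so such ratios may be understated. Across genes above the floor, which are not independent replicates, Pearson's r was 0.993 between arrays 1 and 3, 0.986 between 1 and 2 and 0.987 between 2 and 3. Array 2 therefore stood slightly apart.

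The median SD over the 3 arrays was 0.145 log2 units for all genes above the floor, 0.0945 for the bright ones, 0.16 for the others, 0.63 for mixed genes and 0.85 for genes near the floor. A bright gene typically kept its place, with a median difference of 0.576 percentile points between its highest and lowest array. Near the floor that difference was 12.8 points, so values there have no usable order. The 20 brightest genes were packed between log2 14.97 and 15.53. They comprised 12 ribosomal protein genes led by RPS23 and RPS10, the translation factor EEF1A1, the tubulin TUBA1B, the actin ACTB, the actin-binding thymosins TMSB4X and TMSB10, the ferritin light chain FTL and the mitochondrially encoded cytochrome oxidase genes COX1 and COX2. RPS23 read 15.32, 15.31 and 15.53 on arrays 1 to 3, and RPS6, the 20th, read 15.06, 15.03 and 15.22. All 20 were higher on array 3 than on array 1, and neighbours in this order do not differ beyond their spread. Many of these genes have near-identical copies in the genome. RPL7, RPS6 and TUBA1B were near the floor when probe sets with names ending in _s_at, _x_at or _a_at were left out. Such suffixed probe sets may match several transcripts, of the same gene or of others. The ending alone does not show cross-hybridisation.

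Of 853 genes placed on 40 lists, 780 had a probe set listed with a single symbol. The other 73 are not analysed here. Of the 780, 170 were bright, 531 were above the floor with the bright ones included, 72 were mixed and 177 were near the floor. Metabolic genes were the class with the most members above the floor, 149 of 168, and markers of other cell types the class with the fewest, 11 of 52. For 387 members above the floor that had more than 1 probe set, the next brightest one was also above it on all 3 arrays in 286, and all were in 181. In the rest, among them MSN, KRT19, CLDN4, TXNRD1, PFKP, PLIN2, VCL, L1CAM, ASNS, FASN, MTHFD1, LGALS3, ITGB4 and LAMA4, the level rests on the brightest probe set, and the text marks only some of them.

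**Figure D1:**
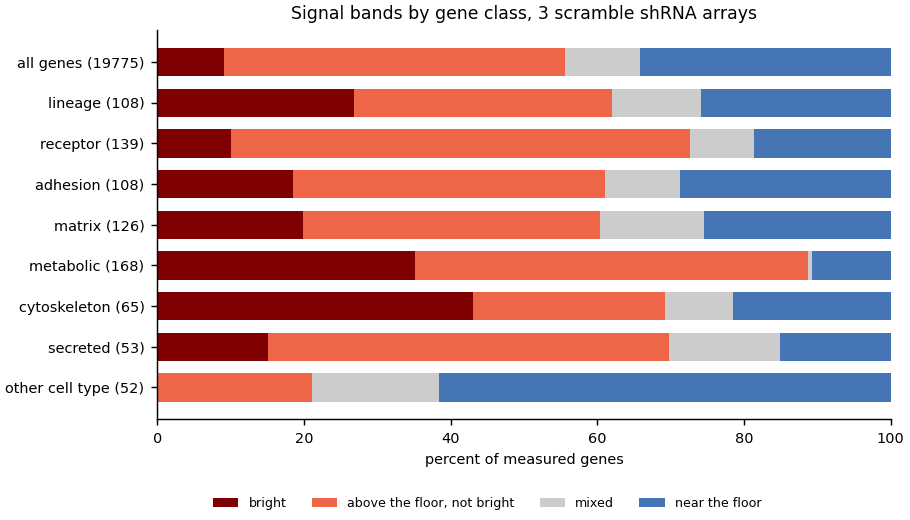
Share of measured genes in each signal band (horizontal axis, percent) for all genes and for each class of listed genes, with the number measured in brackets; bars stack the bright, other above-floor, mixed and near-floor shares over the 3 scramble shRNA arrays. The metabolic and cytoskeleton bars hold the widest bright shares, 35.1% and 43.1% against 9.14% of all genes, and the bar for markers of other cell types has none.

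Among the lineage lists, the mesenchymal structural genes had the largest bright share, 60%. Of 108 measured lineage genes, 29 were bright, 67 were above the floor with the bright ones included, 13 were mixed and 28 were near the floor. Among 20 mesenchymal structural genes, 12 were bright and 1 was near the floor. VIM, the intermediate filament vimentin, read 14.69, 14.75 and 14.87, at the 99.7th percentile. LGALS1 (galectin-1), CD44 (the hyaluronan receptor), ANXA1 (annexin A1) and AXL (a receptor kinase) all lay at or above the 99.1st percentile, with SDs of 0.13 or less. These genes differed little between arrays. MSN, which links actin to the membrane, NT5E, the ecto-nucleotidase CD73, CD59, CALD1, TPM1, FN1 and S100A4 completed the bright set. VIM rested on 1 of 2 probe sets, the other lying near the floor, and TPM1 was mixed without suffixed probe sets.

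S100A4, a calcium-binding protein tied to motility, read 12.55, 13.47 and 12.56. Array 2 was higher than both others there, an exception within the bright set. CDH2, N-cadherin, read 5.20, 6.02 and 5.68 and was mixed. THY1, a fibroblast surface protein, read 5.44, 4.27 and 4.34 and was near the floor. ACTA2, smooth muscle actin, was mixed and TAGLN, CDH11, FBN1, TPM2 and SPARC were above the floor without being bright. The bright set thus held filament, membrane-linker and matrix genes, while N-cadherin and smooth muscle actin were not above the floor on all arrays.

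Among 19 measured transcription factors of the mesenchymal list, 3 were bright, 12 were above the floor with those included, and 6 were near it. SNAI2 (SLUG) read 12.34, 12.47 and 12.44, at the 93.8th percentile. ETS1 read 13.39, 13.72 and 13.34 and RUNX2 averaged 12.19 ± 0.15 (SD, n = 3), although RUNX2 was near the floor by the median of its 6 probe sets. ZEB1 read 11.76, 11.73 and 11.75, at the 89.8th percentile, just outside the bright band. HMGA2, an architectural chromatin protein, and FOSL1, an AP-1 subunit, also lay just under it on 1 array each. ZEB2 was in the middle of the range, at 7.84 ± 0.092 (SD, n = 3). SNAI1, at 2.19, 2.70 and 3.24, was near the floor on every array. TWIST1, TWIST2, SNAI3, FOXC2 and TCF4 were near it too, so within the SNAIL, ZEB and TWIST families the signal sat on SNAI2, ZEB1 and, lower, ZEB2.

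The epithelial side was split. CDH1, E-cadherin, read 1.51, 4.42 and 0.21, and both of its probe sets were near the floor on all arrays. ESRP1, which directs epithelial splicing, averaged 2.70 ± 0.47 (SD, n = 3), at the 9.94th percentile. GRHL2, an epithelial transcription factor, averaged 4.49 ± 0.53. RAB25, the membrane protease ST14, PRSS8 and OVOL2 were near the floor as well. Of the 13 measured genes on that list of splicing and transcription factors, 6 were near the floor and 1 was bright. The bright one was EHF, an ETS factor of epithelia, at 13.35, 12.60 and 13.42. It was lower on array 2, and 5 of its 6 probe sets were above the floor on every array, the second brightest averaging 8.64. KLF5, RBM47 and SPINT2 were also above the floor. These genes show that the epithelial factors did not lie in 1 band.

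Of 25 measured junction genes, 17 (68%) were above the floor, against 55.6% of all genes. Of these, 5 were bright, 20% of those measured against 9.14% of all genes. The bright ones were the catenins CTNNA1 and CTNNB1, which bind cadherin tails, the tight junction scaffold TJP1, the desmosomal cadherin DSG2 and PERP. Without suffixed probe sets CTNNA1 was mixed and PERP was near the floor, and PERP was mixed by the median of its probe sets. CTNNB1 read 13.27, 13.23 and 13.46. EPCAM, an epithelial adhesion protein, read 8.01, 8.48 and 7.19, in the middle of the range with a wide spread. CLDN4 (9.67 ± 0.23, SD, n = 3) and CLDN7 (8.49 ± 0.15) were above the floor. CLDN3 read 6.58, 4.43 and 3.81 and was above the floor on array 1 alone. Other cytoplasmic partners were lower: JUP, PKP2 and PKP3 lay at the 55.5th, 60.6th and 55.9th percentiles, and PKP1 and TJP3 were near the floor. The junction genes thus ranged from bright to near the floor.

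Of 14 measured keratins, 5 were bright, 7 were above the floor with those included, 1 was mixed and 6 were near it. KRT18, KRT7, KRT19 and KRT8, the simple keratins of luminal cells, were all bright, at percentiles from 92.7 to 96.9. KRT18 read 13.09, 13.31 and 13.26. KRT14 and KRT16, keratins of basal and activated epidermal cells, were near the floor. KRT5 read 5.61, 5.92 and 2.54 and was mixed. The keratins did not divide cleanly by kind, since the epidermal KRT10 was bright (12.44 ± 0.044, SD, n = 3), the basal KRT15 was above the floor (7.09 ± 0.38) and the simple keratin KRT20 was near it (3.91 ± 1.9). Other basal genes were bright: CAV1, the coat protein of caveolae, at the 99.5th percentile, SFN, a 14-3-3 protein, at the 97.4th, LAMB3 at the 91.3rd and EGFR at the 92.0th. CDH3, P-cadherin, and MME were near the floor. Neither the luminal nor the basal list was of 1 kind, with 10 of 19 and 5 of 12 measured genes above the floor.

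None of the 3 clinical receptors was bright. PGR, the progesterone receptor, read 2.29, 2.86 and 4.76 and was near the floor by both of its probe sets. ESR1, oestrogen receptor alpha, read 6.66, 7.08 and 6.64 at its brightest probe set. The next of its 9 probe sets exceeded the floor on array 2 alone and the other 7 on none. ERBB2 averaged 8.87 ± 0.14 (SD, n = 3), at the 63.8th percentile, by 1 of 3 probe sets. GATA3, a luminal transcription factor, was above the floor by all 3 of its probe sets, at 10.19, 9.79 and 10.16, while FOXA1, its usual partner, was near the floor. TFF1, an oestrogen-responsive secreted peptide, averaged 9.03 ± 0.22. Of the markers by which the labelled line is usually known, VIM, CD44 and EGFR were bright, CDH1 and PGR were near the floor, CLDN3 was mixed, and EPCAM, ERBB2 and ESR1 were above the floor without being bright.

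**Figure D2:**
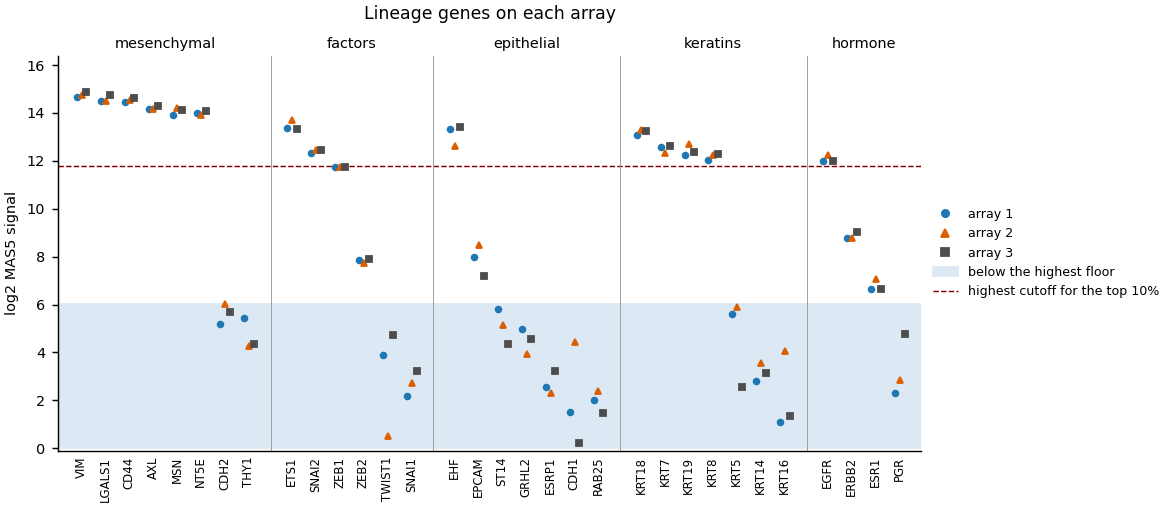
The log2 MAS5 signal (vertical axis) of lineage genes on array 1 (circles), array 2 (triangles) and array 3 (squares), grouped by role; the shaded zone lies below the highest floor of the 3 arrays, 6.02, and the dashed line marks the highest cutoff for the top 10%, 11.78. VIM and the simple keratins sit tightly above the line, and CDH1, SNAI1 and KRT14 lie in the shaded zone with wide scatter.

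Markers of cell types that a breast line should not contain were scarce. None of 52 was bright, 11 were above the floor, 9 were mixed and 32 were near it. Melanocyte genes were near the floor in 6 of 7, with MITF the exception at 9.20 ± 0.31 (SD, n = 3). Of 10 blood cell genes, 5 were near the floor, among them PTPRC (CD45) and SPI1, 2 were mixed, and CD14, HBB and CSF1R were above it at means of 7.35, 6.82 and 6.58. Of 8 endothelial genes, CDH5, VWF, TIE1, CLDN5 and TEK were near the floor, PECAM1 was mixed, and ESAM and KDR were above it at 7.15 and 6.27. Of 8 liver genes, 6 were near the floor, ALB included, and CYP3A4 and TTR were above it, at the 50.1st and 45.7th percentiles. No blood, endothelial or liver marker was past the 52.1st percentile. The highest of these markers was MBP, a myelin gene that also has transcripts outside the nervous system, at 11.14, 10.68 and 11.15, by 4 of its 9 probe sets. Of 7 neural genes, SNAP25 was the other one above the floor, at a mean of 6.30 by 1 of 3 probe sets. Of 12 fibroblast and muscle genes, COL1A1 alone was above the floor, at a mean of 7.56 by 2 of 5 probe sets. The fibroblast collagens COL3A1 and COL1A2 averaged 3.02 and 4.87, and PDGFRA, DCN, LUM and POSTN were not above the floor on all arrays.

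Among receptors, 14 of 139 measured genes were bright, 101 were above the floor with those included, 12 were mixed and 26 were near it. The share of bright receptors, 10.1%, was close to the 9.14% of all genes. Of 34 receptor tyrosine kinases, 3 were bright. AXL, the receptor of GAS6, read 14.15, 14.17 and 14.31. MET, the receptor of hepatocyte growth factor, read 13.33, 13.27 and 13.30 and had the smallest SD of the 3, 0.032. EGFR read 12.01, 12.24 and 11.99, with 3 of 9 probe sets above the floor on all arrays, and by the median of its probe sets it was mixed. EPHA2 lay just outside the bright band at the 89.9th percentile. FGFR1, ROR1, RYK, INSR and IGF1R were above the floor without being bright. KIT, TEK, FLT1, FLT4, PDGFRA, ERBB4, ALK and ROR2 were near the floor. PDGFRB was mixed, and the endothelial kinase KDR was just above it.

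The TGF-beta receptor pair was bright. TGFBR2, which binds the ligand, read 13.42, 13.10 and 13.65, and TGFBR1, the signalling partner, read 11.93, 11.91 and 11.97. The endothelial members of that family, ENG and ACVRL1, were near the floor, while the activin and BMP receptors ACVR1, ACVR1B, ACVR2A, ACVR2B, BMPR2 and BMPR1B lay between. Cytokine and death receptors had 26 of 28 members above the floor. IL6ST, the shared chain of IL-6 family receptors, read 13.85, 13.79 and 13.93. IL6R, which gives that chain its IL-6 binding, averaged only 6.40 ± 0.26 (SD, n = 3), by 1 of 3 probe sets. OSMR, the oncostatin M receptor, was bright at 12.17 ± 0.22 and LIFR was above the floor at 9.48 ± 0.13. TNFRSF12A, TNFRSF21 and TNFRSF10B, of the TNF receptor family, and IFNGR2 were bright too.

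NR3C1, the glucocorticoid receptor, was the only bright nuclear receptor of 24, at 12.07 ± 0.064 (SD, n = 3), with all 5 probe sets above the floor. PPARD (11.53 ± 0.054, SD, n = 3) and the clock repressor NR1D2 (11.33 ± 0.07) followed. ESR2 and RXRG were near the floor with PGR. Among 26 G protein-coupled receptors, 10 were near the floor and 1 was bright. The bright one was ADORA2B, an adenosine receptor, at 13.41, 13.54 and 13.56. Its ligand-producing enzyme NT5E was named above among the bright mesenchymal genes. CXCR4, a chemokine receptor studied in breast cancer spread, read 8.92, 9.41 and 8.51, at the 64.6th percentile, with all 3 probe sets above the floor. CXCR1 and CXCR2, receptors of the chemokine CXCL8, were near the floor. Of the Notch and Wnt receptors, NOTCH2 was bright at 12.43 ± 0.14, FZD7 and FZD2 lay at the 89.0th and 86.6th percentiles, and NOTCH3 and LGR5 were near the floor.

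Among adhesion genes, 20 of 108 were bright, 66 were above the floor with those included, 11 were mixed and 31 were near it. Integrins are paired alpha and beta chains that bind matrix. ITGB1, the beta chain shared by most matrix receptors, read 14.67, 14.71 and 14.79, at the 99.6th percentile. Only 3 of its 7 probe sets were above the floor on all arrays. ITGB1 was mixed by their median and near the floor when suffixed probe sets were left out. Of its alpha partners, ITGA6 (12.97 ± 0.24, SD, n = 3), ITGAV (12.73 ± 0.047) and ITGA2 (11.99 ± 0.11) were bright, and ITGA3 and ITGA5 were above the floor. ITGAE, usually described in lymphocytes, was bright by its single probe set at 12.57, 12.34 and 12.54. The leukocyte chains ITGAL, ITGAM, ITGAX, ITGAD and ITGB7 and the platelet chain ITGA2B were near the floor, as was ITGA4. ITGB2, the beta chain of most leukocyte integrins, and ITGB3, a partner of ITGA2B among others, were above it. They averaged 6.07 ± 0.19 and 6.64 ± 0.12 (SD, n = 3), each by 1 of several probe sets. ITGB4, the partner of ITGA6 in hemidesmosomes, read 6.79, 6.29 and 6.22, just over the floor.

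The cadherins were the emptiest of the adhesion lists. Of 17 measured, 14 were near the floor, 2 were mixed and none was bright. The single one above the floor was CDH11, a mesenchymal cadherin, at 10.03, 10.12 and 10.15, with all 4 of its probe sets above the floor. Adhesion molecules of other families were bright in 5 of 22: CD44, ALCAM, CD99, CD47 and CD58. CD47, the signal that restrains macrophages, read 12.79, 12.74 and 12.81. L1CAM and ICAM1 lay at the 83.2nd and 82.2nd percentiles. Among tetraspanins and proteoglycans CD63, CD9, CD81, TSPAN3, TSPAN4 and SDC4 were bright, although CD9 was near the floor by the median of its 3 probe sets. The adaptors of focal adhesions were above the floor in 19 of 22, with ACTN1 at the 99.4th percentile, VCL (vinculin) at the 97.4th, FERMT2 (kindlin-2) at the 95.2nd and PTK2 (focal adhesion kinase) at the 92.8th. The integrins were above the floor in 13 of 25.

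Matrix genes were bright in 25 of 126, above the floor in 76 with those included, mixed in 18 and near the floor in 32. CCN1 (CYR61), a matrix-bound signalling protein, read 14.92, 14.84 and 15.01, at the 99.8th percentile. THBS1, thrombospondin-1, read 14.43, 14.42 and 14.58 with all 7 probe sets above the floor. SRGN (serglycin), CCN2 (CTGF), TGFBI, FN1 (fibronectin) and the crosslinking enzyme LOXL2 were also bright, LOXL2 by 1 of 4 probe sets. By contrast SPP1 (osteopontin), POSTN, ELN, BGN, LUM, THBS2 and FBN2 were near the floor. POSTN was listed at 0 on array 3, the lowest value the scale allows.

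Only 2 of 30 collagens were bright. COL8A1 read 13.45, 13.11 and 13.43, and the transmembrane collagen COL13A1 read 12.75, 12.46 and 12.72. The basement membrane pair COL4A1 and COL4A2 lay at the edge of the bright band, at the 90.3rd and 89.5th percentiles. COL12A1, COL5A1 and COL6A1 were between the 81.8th and 87.5th. The main fibrillar collagens of connective tissue were lower: COL1A1 averaged 7.56 ± 0.56 (SD, n = 3), COL1A2 was mixed, and COL3A1 and COL5A2 were near the floor. Of the laminins, LAMC1 (12.34, 12.20 and 12.07) and LAMB3 (11.89, 11.90 and 12.08) were bright and LAMB1 followed at 11.48 ± 0.064. NID1 and NID2, which tie laminin to collagen IV, were near the floor.

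Matrix proteases were bright in 10 of 35. MMP1, interstitial collagenase, read 14.10, 14.17 and 14.25, at the 99.1st percentile. The plasminogen activator system followed, with PLAU (urokinase) at 13.91 ± 0.16 (SD, n = 3), PLAT at 12.74 ± 0.23 and the receptor PLAUR at 12.70 ± 0.099. ADAM9, ADAM10 and the cathepsins CTSB, CTSZ, CTSC and CTSL were the other bright ones. MMP14, the membrane-anchored collagenase, read 11.25, 11.35 and 11.95, highest on array 3. MMP9 and MMP3 were in the middle, and MMP2, MMP10 and MMP13 were near the floor, MMP2 on all 3 of its probe sets. Among the inhibitors, TIMP1 (13.84, 13.62 and 14.02), TIMP2, CSTB and the collagen chaperone SERPINH1 were bright. SERPINB5 (maspin), an inhibitor of normal mammary epithelium, read 0.64, 3.45 and 1.40 and was near the floor.

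**Figure D3:**
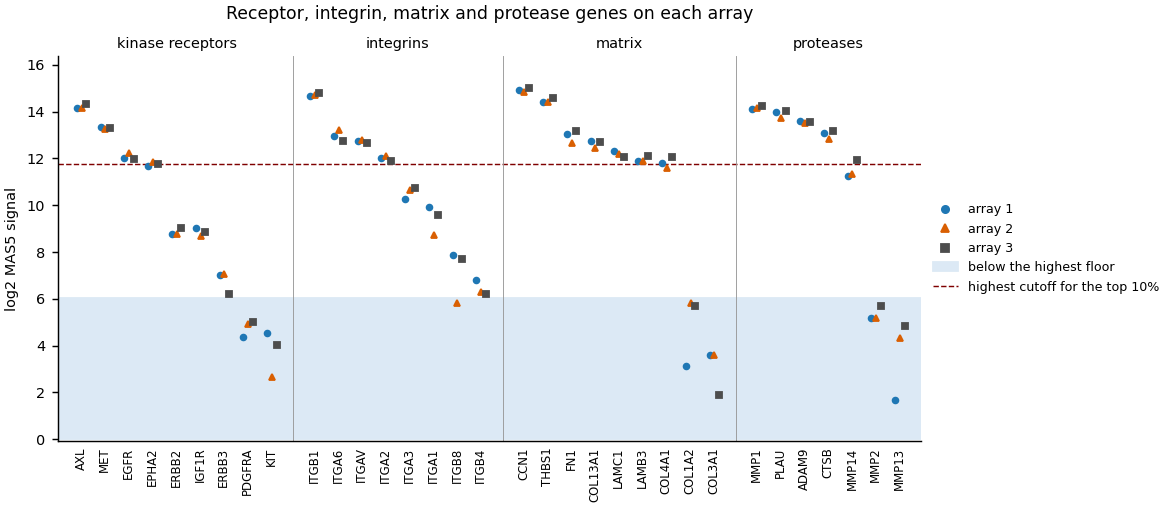
The log2 MAS5 signal (vertical axis) of receptor kinase, integrin, matrix and protease genes on array 1 (circles), array 2 (triangles) and array 3 (squares); the shaded zone lies below the highest floor, 6.02, and the dashed line marks the highest cutoff for the top 10%, 11.78. AXL, ITGB1, CCN1 and MMP1 lead their groups, KIT, COL3A1 and MMP13 lie in the shaded zone, and ITGA1 and ITGB8 have their triangles well below the other symbols.

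Metabolic genes were bright in 59 of 168, above the floor in 149 with those included, mixed in 1 and near the floor in 18. Glycolysis splits glucose into pyruvate, which lactate dehydrogenase reduces to lactate. LDHA read 14.99, 15.03 and 15.20, at the 99.9th percentile, and LDHB was bright too at 14.58 ± 0.078 (SD, n = 3). GAPDH, ENO1, PGK1, ALDOA, PGAM1 and TPI1, the enzymes of the middle and lower pathway, lay between the 98.9th and 99.8th percentiles. ENO1 kept that place only with its suffixed probe sets and was near the floor without them. The pathway was therefore bright along most of its steps.

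The isozymes of each step differed in band. Of the phosphofructokinases, PFKP (platelet type) was bright at 13.53, 13.58 and 13.66, while PFKM and PFKL averaged 11.08 ± 0.089 and 8.61 ± 0.13 (SD, n = 3). Of the hexokinases, HK1 was bright at 12.22 ± 0.11, HK2 read 11.06, 11.73 and 11.02, higher on array 2, and HK3 was near the floor. PKM, the pyruvate kinase of most tissues, read 10.76, 10.77 and 10.89, at the 82.0th percentile, while PKLR, the liver and red cell form, was near the floor. SLC2A1, the basal glucose carrier GLUT1, averaged 11.31 ± 0.21 and SLC2A3 averaged 8.91 ± 0.16. The liver and insulin-sensitive carriers SLC2A2 and SLC2A4 were near the floor, as was PGAM2, the muscle phosphoglycerate mutase. The near-floor members of the glycolysis list were these 5 tissue-restricted forms. Other tissue-restricted forms were above the floor: ENO2 averaged 10.45, ALDOC 7.25, LDHC 6.87, ENO3 6.53 and PGK2 5.97. Tissue-restricted forms thus lay both near and above the floor, with PGK2 close to it and ENO3 resting on 1 of 2 probe sets.

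Redox genes were bright in 18 of 30. TXN, thioredoxin, read 14.80, 14.85 and 14.79, and its reductase TXNRD1 read 14.36, 14.42 and 14.46. The peroxiredoxins PRDX1, PRDX2, PRDX3, PRDX4 and PRDX6, the peroxidases GPX1 and GPX4, SOD1, catalase (CAT) and NQO1 were also bright. GCLM, the regulatory subunit of glutathione synthesis, averaged 12.77 ± 0.19 (SD, n = 3) and GSTP1 averaged 12.70 ± 0.054. HMOX1 and SOD2, which are stress-induced, were above the floor at 9.54 ± 0.28 and 10.16 ± 0.19. GPX2 and TKTL1 were near it. TALDO1 and TKT, of the pentose phosphate pathway, lay at the 98.9th and 98.7th percentiles. TKT was mixed without suffixed probe sets.

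All 23 measured citrate cycle genes were above the floor, and 8 were bright, led by MDH2 at 13.82, 13.83 and 13.89. The lowest were OGDH at 7.80 ± 0.082 (SD, n = 3), PC at 8.57 ± 0.18 and IDH2 at 9.07 ± 0.086. One-carbon metabolism carries serine-derived carbon on folate for nucleotide synthesis, and its genes were split. TYMS, thymidylate synthase, read 14.29, 14.29 and 14.41, and PSAT1, MTHFD1, MTHFD2, SHMT2, AHCY and MAT2A were bright. PHGDH, the first enzyme of serine synthesis, read 6.95, 7.45 and 6.16, at the 48.1st percentile, although the next enzymes PSAT1 and PSPH averaged 12.80 ± 0.25 and 11.40 ± 0.24. SHMT1, the cytosolic counterpart of the mitochondrial SHMT2, was near the floor, with MTHFD1L, ALDH1L2, CBS and GLDC. Between the paired SHMT enzymes, the signal thus lay on the mitochondrial one.

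Amino acid supply genes were above the floor in 22 of 23 and bright in 8. ODC1, of polyamine synthesis, read 13.35, 13.63 and 13.58. The carriers SLC7A1, SLC38A2, SLC38A1 and SLC7A5, BCAT1, GLUD1 and GLUL were the other bright ones, GLUL near the floor without suffixed probe sets. ASNS, asparagine synthetase, read 11.98, 11.20 and 11.84, lower on array 2. Lipid genes were bright in 6 of 25, led by the droplet coat protein PLIN2 (13.95, 13.80 and 13.99), ELOVL5 and ACLY. FASN, fatty acid synthase, read 7.50, 7.78 and 7.13, at the 52.8th percentile, and its regulator SREBF1 averaged 6.78 ± 0.2 (SD, n = 3). CD36 and FABP4, lipid carriers of fat cells, were near the floor.

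**Figure D4:**
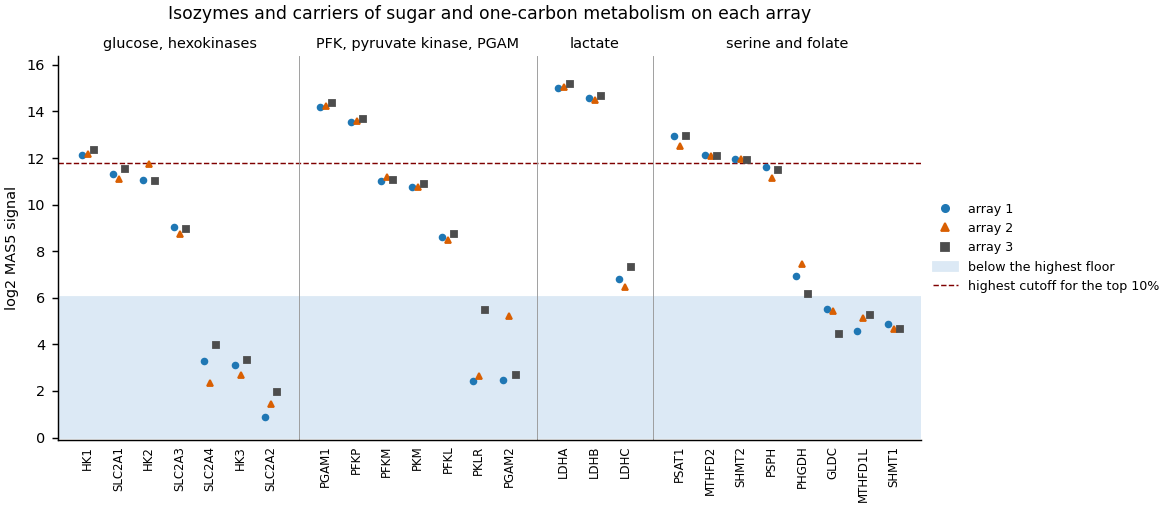
The log2 MAS5 signal (vertical axis) of isozymes and carriers of sugar and one-carbon metabolism on array 1 (circles), array 2 (triangles) and array 3 (squares); the shaded zone lies below the highest floor, 6.02, and the dashed line marks the highest cutoff for the top 10%, 11.78. HK1, PGAM1, PFKP and LDHA lie above the line, HK3, PGAM2, PKLR and SHMT1 in the shaded zone, and PHGDH just above it.

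The cytoskeleton was the class with the widest bright share, 28 of 65, with 45 above the floor and 14 near it. The actin regulators TMSB4X, TMSB10, CFL1 and PFN1, the myosin light chains MYL6 and MYL12B, and ANXA2 all lay at or above the 98.9th percentile. MYO10, the filopodial myosin that the study's other hairpin targets, read 11.56, 11.96 and 11.86. All 5 of its probe sets were above the floor, and its mean percentile of 90.1 placed it at the edge of the bright band in these control cells. MYH9 and MYH10, the heavy chains of contractile myosin, averaged 11.01 ± 0.43 and 11.12 ± 0.32 (SD, n = 3), both lowest on array 1. FSCN1, the bundling protein of filopodia, was in the middle at 7.34 ± 0.19.

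Secreted factors were bright in 8 of 53, above the floor in 37, mixed in 8 and near it in 8. MIF, a cytokine made by many cells, read 14.20, 14.21 and 14.35. CXCL8 (interleukin-8) read 13.80, 13.69 and 13.80, and the related chemokines CXCL1 and CXCL2, with IL6 at 12.17, 12.33 and 12.51, were bright too. CXCL2 was near the floor by the median of its 3 probe sets. CCL2, CCL5, CXCL5 and CXCL6 were near the floor, so the CXC chemokines were not all high. DKK1, a secreted Wnt inhibitor, read 14.57, 14.52 and 14.78, at the 99.5th percentile. VEGFA and HBEGF were the other bright growth factors. TGFB2 averaged 11.26 ± 0.097 and TGFB1 averaged 7.05 ± 0.32 (SD, n = 3), and FGF2, EGF and PDGFB were near the floor.

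Array 2 differed from the others in a limited set of genes. Over genes above the floor, the SD of the difference from the mean of the other 2 arrays was 0.32 for array 2, 0.25 for array 1 and 0.24 for array 3. On array 2, 133 genes differed by more than 1 log2 unit, 108 of them lower, against 40 genes on array 1 and 24 on array 3. Of the 12 genes with the largest SD, 11 were low on array 2 and 1, ADAM33, was low on array 3. SEL1L3 read 8.85, 6.51 and 8.73, a 4.84-fold lower signal on array 2. PTGS2, the inducible prostaglandin synthase, read 9.14, 7.26 and 9.25, and its second probe set read 7.60, 6.06 and 7.40. HLA-DRB4, whose probes may also bind related class II genes, read 11.82, 9.68 and 11.82, and its second probe set, with a mean of 7.64, was also lowest on array 2, at 6.37. The rest were TREM1, ITGB8, IL1A, SLC15A3, WFDC21P, ODAPH, EMB and SLFN5. On array 2, TREM1, ITGB8, SLC15A3 and WFDC21P read 5.82 to 5.94, close to the floor of that array, 5.72. The second probe sets of IL1A and EMB were not above the floor on all arrays and were not lowest on array 2. At each of the 11 genes, arrays 1 and 3 lay nearer to each other than either did to array 2.

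Listed genes shared that pattern unevenly. Of the 531 listed genes above the floor, 12 differed on array 2 by more than 1 unit, 11 of them lower. Of these 11, 4 were cytokines: IL1A (11.44, 9.47 and 11.27), IL1B (10.74, 9.48 and 10.64), CSF3 (10.01, 8.73 and 10.08) and IL24 (9.44, 8.42 and 9.73). Both IL1B probe sets were low on array 2. The 17 cytokines above the floor had a median difference of -0.41 on array 2, against -0.03 over all genes above the floor, and CXCL8 and IL6 were among those with small differences, -0.11 and -0.01. Growth factors leaned the other way, with a median of 0.19, and EREG (7.20, 8.78 and 7.91) was the 1 listed gene more than 1 unit higher. The other 7 were the adhesion genes ITGB8, ITGA1 (9.91, 8.74 and 9.60) and TSPAN13, the matrix genes LAMA4 (8.11, 6.56 and 7.94), ADAMTS1 (10.47, 9.43 and 10.54) and HSPG2, and the junction gene JUP. VCAM1, the ligand of leukocyte integrins, read 7.87, 4.28 and 7.57 and was mixed for that reason. Array 2 had a GAPDH 3′ to 5′ ratio of 0.955, the lowest of the 3, and an ACTB ratio of 1.38, as on array 1. The part of RNA quality in these differences was not tested.

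**Figure D5:**
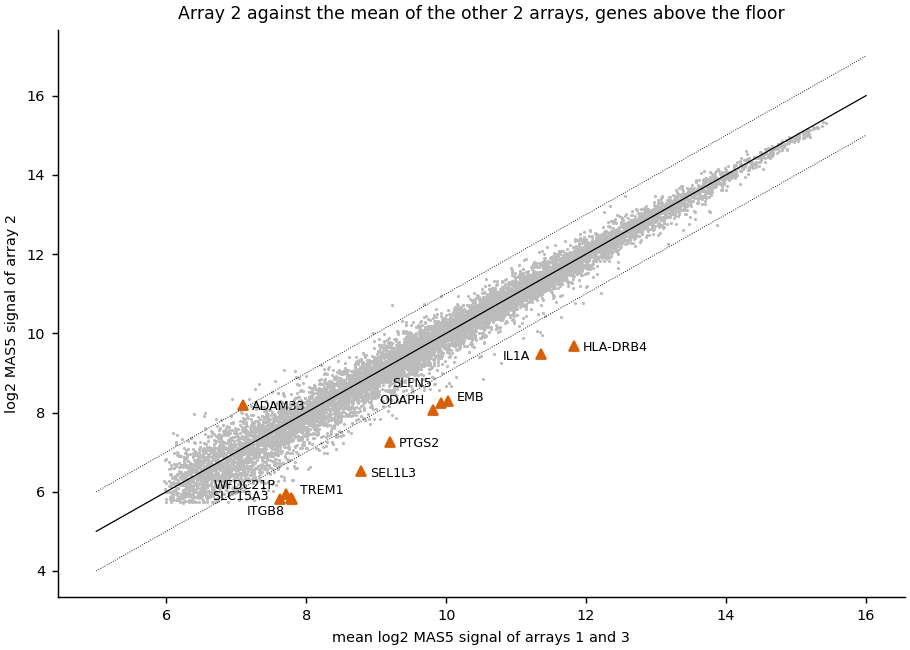
The log2 MAS5 signal of array 2 (vertical axis) against the mean of arrays 1 and 3 (horizontal axis) for the 10999 genes above the floor (grey); the solid line marks equality, the dotted lines a difference of 1 log2 unit, and triangles the 12 genes with the largest SD. The triangles lie below the lower dotted line, ADAM33 excepted, whose low array was array 3.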

How the data were processed

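Total RNA of MDA-MB-231 cells was hybridised to Affymetrix arrays after biotin labelling, per the labels' protocols. The deposited values are log2 signals of 54675 probe sets, computed with MAS5 per the submitters' processing notes; the version of MAS5 and its scaling target were not given in the sources used here. On each array, the mean linear signal without the lowest and highest 2% was 499.9, so the arrays share a scale and were used as deposited, with no further normalization. Of the probe sets, 41097 had 1 symbol in the platform annotation, 1801 had several and 11777 had none; 41043 matched a RefSeq gene by Entrez number. Ranks, floors, bands and SDs were computed with Python 3.11.15, pandas 2.3.3 and numpy 2.4.6, after tests on simulated data. With 1 group there is no comparison and no test; the number of arrays, 3, limits the precision. Every listed gene could be named, with the 20 brightest and the 12 most variable genes above the floor. Members and lists were chosen with earlier results of these data known. Alternatives covered the probe set rule, the ranking, the floor, the bright cutoff, normalization, an added 16, genes at 0 and each array left out.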

Additional observations from a re-analysis of the deposited data

How the results depend on the processing

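Without suffixed probe sets (names ending in _s_at, _x_at or _a_at), 47 matrix genes of 97 measured were above the floor. For metabolic genes it was 99 of 123 measured. Both counts fell in part because fewer genes were measured. With the floor at the 40th percentile of all probe sets, 4097 genes were near it. Ranking over all probe sets made 3336 genes bright, and a cutoff at the top 5% made 893 bright, by construction. The median SD over arrays ranged from 0.0945 to 0.134 when 1 array was left out, the low value without array 2. All other alternatives left the counts within 1.5 times, and array 2 had the largest SD of difference under every one that could give it; with 1 array left out no array can be set apart. By the median of a gene's probe sets, 7911 genes were near the floor. Above it were then 49 of 108 lineage, 75 of 139 receptor and 54 of 108 adhesion genes. The same rule left 67 of 126 matrix and 140 of 168 metabolic genes above it. By that median, 123 of 187 named bright genes stayed bright, and 7 were no longer above the floor. Without suffixed probe sets, 106 of the 137 still measured stayed bright, and 12 were no longer above the floor. No named gene near the floor was above it under either. That was nearly fixed in advance, because neither rule can readily raise a signal over that of the brightest probe set. Lower floors could move such genes: 5 were above with the floor at the 75th percentile of olfactory receptor genes. With the floor at the 40th percentile of probe sets it was 11. No paired analysis was possible because only 1 group was described and no test was made.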

Other observations

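S100 proteins, small calcium-binding proteins, and galectins, which bind sugars, ranged over all bands. Of 22 measured, 8 were bright, 3 more were above the floor (S100A2, LGALS8 and S100A3), 4 were mixed and 7 were near it. S100A6 read 14.86, 14.92 and 15.17 and S100A10, the partner of annexin A2, read 14.95, 14.86 and 15.12, both at the 99.8th percentile. LGALS3, S100A11, S100A16 and S100A13 were bright as well. S100A8 and S100A9, the pair of myeloid and inflamed epithelial cells, S100A7, S100P and S100B were near the floor.

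Of 17 genes of aldo-keto and aldehyde metabolism, 14 were above the floor and 1 was bright. CYP1B1, an oestrogen- and xenobiotic-oxidising enzyme, read 13.19, 13.23 and 13.21, with an SD of 0.022, and 3 of its 4 probe sets were above the floor. CYP1A1 averaged 7.57 ± 0.12 (SD, n = 3). ALDH1A1, a marker often used for stem-like breast cancer cells, read 0.25, 1.95 and 2.46 and was near the floor, while ALDH1A3 averaged 9.36 ± 0.055. AKR1C1 and AKR1C2 are near-identical copies and AKR1C3 is a less similar relative, so their separate levels are uncertain. AKR1C3 averaged 11.34 by its single probe set, against 8.67 for AKR1C1 and 8.17 for AKR1C2.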
